A study of Mus musculus with 12 samples.

Results

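The comparison is the change between day 7 and day 14 of Pneumocystis infection in pulmonary CD11c+ cells of mice without the type I interferon receptor. Its members are 6 of the 12 arrays of the series, 3 labelled IFNAR-/- day 7 and 3 labelled IFNAR-/- day 14, each of 1 mouse, and they were taken by these labels and not by any measured value. All 18193 genes that could be named were compared. Every mouse of the series, wildtype mice included, had been infected by instillation of the fungus Pneumocystis into the trachea, so no group is uninfected. The other 6 arrays are 3 wildtype mice at day 7 and 3 wildtype mice at day 14, and they are used only where the change without the receptor is set beside the change with it. Lungs were digested with collagenase, and cells were bound by magnetic beads against CD11c, an integrin chain carried by alveolar macrophages and dendritic cells. Per the labels the sorted cells were over 90% pure, with lymphocytes under 5% among the rest. The strain, age and sex of the mice and the allele behind the name IFNAR-/- are not given in the sources used here, and every cell of these mice lacks the receptor, not the CD11c+ cells alone.

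Type I interferons are secreted proteins that cells make after sensing microbes. They bind a receptor of 2 chains, Ifnar1 and Ifnar2, which activates a complex of transcription factors, and this complex binds the interferon-stimulated response element (ISRE) in the promoters of antiviral genes. Alveolar macrophages clear surfactant lipid and depend on the factor Pparg, whereas dendritic cells present antigen on MHC class II to T cells, which are needed to clear Pneumocystis.

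Values are log2 of the deposited ratio, which sets each probe set against its own median over the 12 arrays. A value of 0 is thus the middle of the series for that gene, levels of different genes cannot be compared, and a ratio cannot show that a marker is absent. Values of single arrays are given in the order mouse 1, mouse 2, mouse 3. A difference is day 14 minus day 7 on the log2 scale with its standard error (SE) from limma, n = 3 arrays a day, and adjusted p is limma's, adjusted by Benjamini-Hochberg over all genes. The words rose and fell are kept for adjusted p below 0.05. A call is said to hold where it also passed in each of the 6 fits that left out 1 IFNAR-/- array.

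A pair of the IFNAR-/- arrays stood apart from the others of their group. Day 7 mouse 3 was the only array of the series with a raised Y-linked transcript, with Eif2s3y at 2.89 and the X-inactivation transcript Xist at -3.98. It also had high medians over the marker lists of lung epithelium (2.11), endothelium (2.83), fibroblasts (2.10) and neutrophils (1.56). These lists had -0.07 to 0.36 in the other IFNAR-/- day 7 arrays. Wildtype day 7 mouse 1 had 1.775 for lung epithelium, 1.93 for endothelium, 0.77 for fibroblasts and -0.19 for neutrophils. Day 14 mouse 2 had the widest spread of values, with an interquartile range of 0.58 against 0.19 to 0.33 in the other 5 IFNAR-/- arrays. The CD11c gene itself, Itgax, differed by -0.01 (SE 0.13, adjusted p = 0.97) between the days. One of the Ifnar1 probe sets read -1.34, -1.41 and -0.39 at day 7 and -0.05, -0.63 and 0.00 at day 14, against a lowest wildtype value of -0.02. Day 14 mouse 3 thus overlapped the wildtype arrays there, and the other probe set overlapped them as well. Since the deleted exon and the probe positions are not known here, neither checks the genotype.

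Between day 7 and day 14, 743 genes rose and 1501 fell in the IFNAR-/- cells. These 2244 genes were 12.3% of all genes tested, and their day 7 and day 14 arrays did not overlap for 2237 of them, against 34% of all genes. The median size was 0.63 for the rises and -0.81 for the falls, and 705 of the genes, 194 rises and 511 falls, changed at least 2-fold. The call held for 900 genes, 245 rises and 655 falls. The total was 1094 without day 7 mouse 1, 1385 without day 7 mouse 3, 1436 without day 14 mouse 2 and 1450 without day 14 mouse 3, and 1136 without both arrays that stand apart. For 1099 of the 2244 genes, all 3 IFNAR-/- day 7 arrays lay beyond all 9 other arrays of the series, wildtype arrays included, and for 400 the 3 IFNAR-/- day 14 arrays did. The corresponding counts over all genes were 1694 (9.31%) and 768 (4.22%), so for many of the genes that changed it was the day 7 group without the receptor that differed from the remaining 3 groups. Since these genes were called on the same arrays, the counts describe them and test nothing.

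The 12 largest rises were those of Ccl24, Ubd, Ocstamp, Timp1, Nos2, Alpk2, Il12a, Pdcd1lg2, Ccl22, Cst7, Ccl17 and the unnamed transcript 4930459C07Rik. Ccl24, a chemokine for eosinophils, read -4.16, -4.84 and -4.05 at day 7 and 0.75, 1.00 and 1.41 at day 14, a rise of 5.40 (SE 0.33, adjusted p = 2.47e-05) or 42.2-fold. Ccl22 and Ccl17, which both bind the receptor Ccr4, rose by 3.36 (SE 0.28, adjusted p = 0.000159) and 3.25 (SE 0.49, adjusted p = 0.00239). For each of these 3 chemokines the lowest day 14 array was at least 2 log2 units above the highest day 7 array. Pdcd1lg2, a ligand of the inhibitory receptor PD-1, rose by 3.39 from -3.12, -3.53 and -2.86 to -0.34, 0.62 and 0.37. Il12a, the p35 subunit of IL-12, read -0.78, -0.73 and -1.03 at day 7 and 2.64, 2.53 and 2.69 at day 14. Arrays of 1 day lay close together for Il12a. Nos2, the inducible nitric oxide synthase, rose from -2.34, -2.24 and -2.56 to 1.39, 2.11 and 0.23, by 3.63 (SE 0.73). Its adjusted p was 0.00951 with all arrays and 0.0806 without both arrays that stand apart. Timp1, an inhibitor of matrix metalloproteases, rose by 3.92 (SE 0.40), and Ocstamp, a membrane protein of fusing osteoclasts, by 3.92 (SE 0.47). Cst7, the cysteine protease inhibitor cystatin F, rose by 3.35 (adjusted p = 0.057 without both arrays that stand apart), and the kinase gene Alpk2 by 3.51, and 4930459C07Rik by 3.25. Ubd, a ubiquitin-like protein induced by inflammatory cytokines, rose by 4.10 (SE 0.92, adjusted p = 0.0162) with day 14 arrays spread from 2.21 to 4.99. Its adjusted p was 0.0631 without day 7 mouse 1 and 0.0618 without day 14 mouse 2. The call held for the other 11. In wildtype mice Ccl24 (3.76), Timp1 (3.27), Ocstamp (2.88), 4930459C07Rik (2.56), Ccl22 (2.53), Ccl17 (2.285), Pdcd1lg2 (2.15) and Alpk2 (2.005) rose too. None of these genes had an interaction past the threshold. Il12a (0.79), Cst7 (0.55), Nos2 (-0.62) and Ubd (-2.58) did not pass in wildtype, and of them only Ubd had an interaction that passed.

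The 12 largest falls were those of Acaa1b, Bex1, Vstm2a, Cidec, Cdo1, Flvcr2, Ereg, Agmo, Kctd12b, Fabp1, Net1 and C5ar1. Acaa1b, a thiolase of fatty acid oxidation in peroxisomes, read 4.63, 4.75 and 5.10 at day 7 and 0.58, -1.68 and -1.96 at day 14. It fell by 5.84 (SE 0.67, adjusted p = 0.000957) or 57.4-fold, the largest change of the comparison. Cidec, a protein of lipid droplets, fell by 3.71 (SE 0.51) from 2.16, 2.17 and 2.57 to 0.08, -2.17 and -2.15. Day 14 mouse 1 was the highest of its day for both genes and still lay below all day 7 arrays. Fabp1, a fatty acid-binding protein, fell by 3.35 (SE 0.75), and Agmo, which cleaves ether lipids, by 3.39 (SE 0.67). C5ar1, the receptor for complement fragment C5a, was the most even of the 12, with 2.78, 2.60 and 2.95 at day 7 and -0.25, -1.04 and -0.27 at day 14 (a fall of 3.30, SE 0.21, adjusted p = 2.47e-05). Cdo1, which oxidises cysteine, fell by 3.69 (SE 0.43), Flvcr2, a membrane transporter, by 3.64 (SE 0.65), and Net1, an activator of RhoA, by 3.32 (SE 0.43). Vstm2a fell by 3.81 (SE 0.54) and Kctd12b by 3.36 (SE 0.50). Ereg, an EGF-family growth factor, fell by 3.56 (SE 0.93, adjusted p = 0.031), with adjusted p from 0.065 to 0.091 when any of the 3 day 7 arrays was left out. Its day 14 arrays read 0.38, -3.89 and 0.00, and without day 14 mouse 2 the difference was -2.20. The Fabp1 call ended without day 14 mouse 2 (adjusted p = 0.0622) or day 14 mouse 3 (0.0568). Bex1 read 3.44, 2.70 and -0.70 at day 7 and about -2 in the 3 day 14 arrays, and its fall of 3.87 (SE 1.08, adjusted p = 0.0391) passed in 1 of the 6 leave-one-out fits. Without day 7 mouse 3, the low array, it passed. Otherwise its adjusted p ranged from 0.0646 (without day 14 mouse 1) to 0.137 (without day 7 mouse 1). It was 0.114 without day 7 mouse 2, 0.104 without day 14 mouse 2 and 0.0817 without day 14 mouse 3. In wildtype mice Ereg (-3.83), Fabp1 (-3.80), Flvcr2 (-3.72), Net1 (-3.67), Cidec (-3.46), Vstm2a (-2.45), Agmo (-2.43) and Cdo1 (-1.58) fell too. Acaa1b (-2.20), Kctd12b (-1.53), C5ar1 (-0.77) and Bex1 (3.46) did not pass there. Of the 12 genes only Bex1 and C5ar1 had interactions past the threshold.

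**Figure D1:**
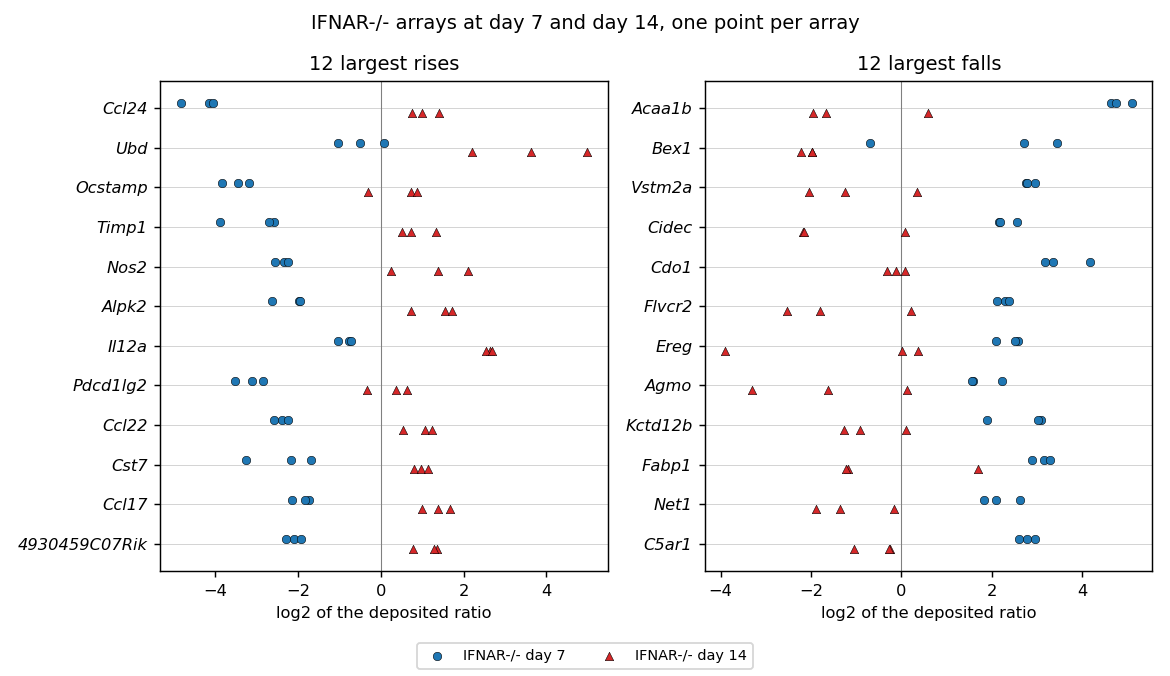
Log2 of the deposited ratio (x axis) in each IFNAR-/- array for the 12 genes that rose most (left) and the 12 that fell most (right), with circles for day 7 and triangles for day 14. No day 14 array overlaps the day 7 arrays of the same gene, and day 14 mouse 1 is the highest day 14 point for Acaa1b (0.58) and Cidec (0.08).

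Without the receptor Ifnb1 fell, and so did 9 of 45 interferon-stimulated genes, whereas 34 of the 45 did not pass. Ifnb1, the gene for interferon beta itself, read 2.44, 3.65 and 2.08 in the IFNAR-/- day 7 arrays and -0.20, 0.31 and -0.08 at day 14. It fell by 2.71 (SE 0.34, adjusted p = 0.00116), the call held, and the 6 wildtype arrays lay between -0.55 and 0.20. Of the 45 measured genes of a list of type I interferon-stimulated genes, 9 fell and 2 rose, against 8.25% and 4.08% of all genes. The median difference of the list was -0.22, against 0.02 over all genes. It depended on single arrays, with -0.02 without day 7 mouse 3, -0.52 without day 7 mouse 2, -0.39 without day 14 mouse 1, -0.13 without day 14 mouse 3 and -0.07 without both arrays that stand apart. The count of falls was 6 without day 7 mouse 3 or day 14 mouse 3. Ifit1, which binds foreign RNA, read 0.02, 1.17 and 1.10 at day 7 and -2.85, -1.69 and -3.05 at day 14, a fall of 3.29 (SE 0.44, adjusted p = 0.00153). Rsad2 (viperin), an antiviral enzyme, read 0.51, 0.51 and 1.53 and then -1.65, -1.73 and -2.40, a fall of 2.78 (SE 0.38, adjusted p = 0.00164). The RNA sensor Ifih1 fell by 1.07 (SE 0.15), the ubiquitin ligase Trim25 by 1.21 (SE 0.18), Oas3, which makes the activator of RNase L, by 1.35 (SE 0.28), and Ifit3 by 2.60 (SE 0.58).

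Of the 9 genes that fell, the call held for these 6. Irf7, the factor that amplifies interferon production, fell by 1.40 (SE 0.36, adjusted p = 0.0298), with adjusted p = 0.0793 without day 7 mouse 3 and 0.0907 without day 14 mouse 3. Ifitm3 fell by 1.24 and Ddx58, the RNA sensor RIG-I, by 0.48, and each passed in only 1 of the 6 leave-one-out fits. Day 7 mouse 3 was the highest day 7 array for Irf7 (1.23), Ifit3 (3.18) and Ifitm3 (1.61). Without it the difference was -1.71 for Ifit3, -0.76 for Ifitm3 and -0.32 for Ddx58. Mx1, an antiviral GTPase, went the other way, from -1.34, -1.49 and -0.82 to -0.23, 0.50 and 0.05, a rise of 1.32 (SE 0.30, adjusted p = 0.0163). Ifi203 rose by 0.67 (SE 0.19, adjusted p = 0.041). Both rises passed in 3 of the 6 leave-one-out fits and ended without day 7 mouse 1 (adjusted p = 0.0612 and 0.112), day 7 mouse 2 (0.0586 and 0.123) or day 14 mouse 2 (0.0609 and 0.0672). Without day 14 mouse 2 the Ifi203 difference was 0.41.

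In wildtype mice 33 genes of the same list fell and none rose, with a median of -1.47. Over all genes 4.1% fell and 3.88% rose in wildtype. The wildtype and IFNAR-/- time changes share no array. By the interaction test of the difference itself, the time change was higher without the receptor (a smaller fall, or a rise) for 11 of the 45 genes. It was lower for none, and over all genes the shares were 1.14% higher and 1.34% lower. Wildtype Irf7 went from 2.80, 3.65 and 2.60 to -0.10, 0.06 and -0.27, whereas Ifit1 and Rsad2 had interactions of -1.20 (SE 0.63, adjusted p = 0.343) and 0.18 (SE 0.54, adjusted p = 0.905), which did not pass. Ifnb1 did not change in wildtype (difference 0.21, SE 0.34, adjusted p = 0.787), and its interaction of -2.92 (SE 0.48) passed with adjusted p = 0.0141.

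The promoters of these genes are shown because the complex below the missing receptor binds the ISRE. The ISRE was searched as GAAANNGAA on both strands, so on the opposite strand it reads as its reverse complement, in windows from 250 bases before to 50 bases after the gene start (RefSeq, GRCm38.p6). Such a window was found for 14452 of the genes tested, and the motif occurred in 7.36% of them, in 8.81% of the 590 windows of risen genes and in 6.58% of the 1231 windows of fallen genes. It occurred in 8 of the 9 interferon-stimulated genes that fell, with none in Irf7, and in 8 of the 23 others of the list with a window. The stretches lie before the gene start, run 5′ to 3′ on the gene's strand, and have the matches in capitals, with overlapping matches joined.
Ifit1, chr19:34640750-34640843, plus strand, 3 matches: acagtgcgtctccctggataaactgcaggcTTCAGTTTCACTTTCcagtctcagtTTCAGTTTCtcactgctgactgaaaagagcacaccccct
Ifit3, chr19:34583344-34583465, plus strand, 3 matches: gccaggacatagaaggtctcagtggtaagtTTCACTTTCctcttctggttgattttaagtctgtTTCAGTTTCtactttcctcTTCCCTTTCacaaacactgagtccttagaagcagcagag
Rsad2, chr12:26456533-26456601, minus strand, 1 match: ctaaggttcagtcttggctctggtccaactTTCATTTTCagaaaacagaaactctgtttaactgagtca
Ifih1, chr2:62646329-62646397, minus strand, 1 match: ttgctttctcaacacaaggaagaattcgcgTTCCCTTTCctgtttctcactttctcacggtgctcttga
Oas3, chr5:120777690-120777764, minus strand, 2 matches: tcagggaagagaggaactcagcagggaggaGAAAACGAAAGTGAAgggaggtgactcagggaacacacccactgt
Oas1a, chr5:120907526-120907575, minus strand, 2 matches: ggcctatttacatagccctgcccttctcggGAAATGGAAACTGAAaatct
Oas1a is shown as a member that has matches and did not fall: it read -1.87, -1.36 and -2.28 at day 7 and -0.97, -1.0 and -1.47 at day 14 (difference 0.69, SE 0.21, adjusted p = 0.0544). A match is a stretch of letters and does not show that the complex binds there.

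**Figure D2:**
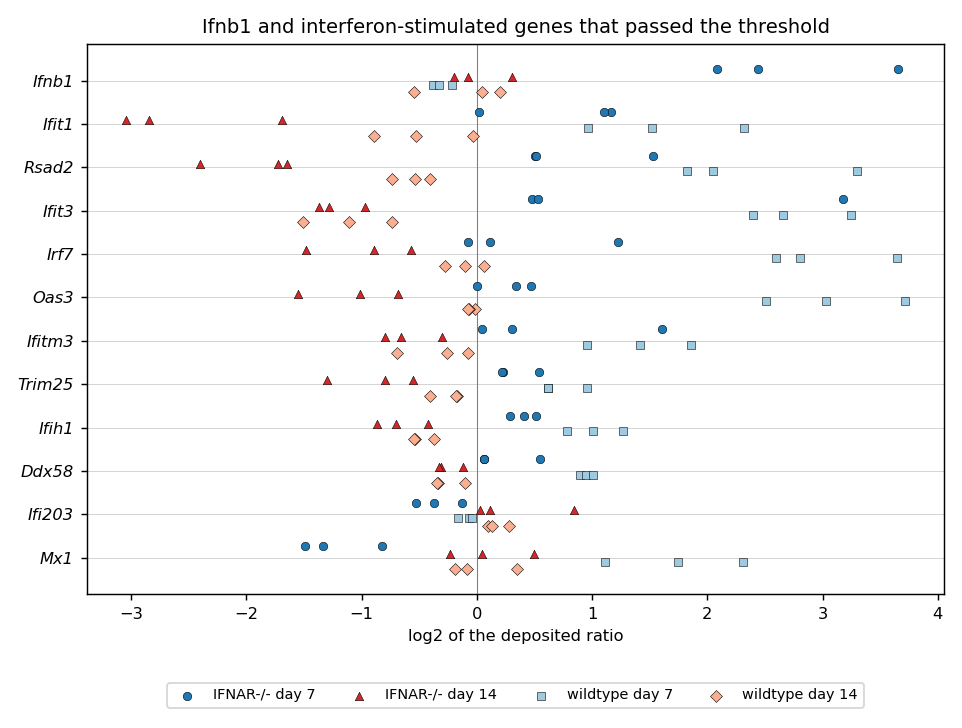
Log2 of the deposited ratio (x axis) in each of the 12 arrays for Ifnb1 and the 11 interferon-stimulated genes that passed the threshold in IFNAR-/- mice, with circles for IFNAR-/- day 7, triangles for IFNAR-/- day 14, squares for wildtype day 7 and diamonds for wildtype day 14. Ifnb1 is at 2.08 or above only in the IFNAR-/- day 7 arrays, and Mx1 is lowest in them (-1.49 to -0.82) and highest in wildtype day 7.

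Of 27 measured chemokines 10 rose (37.0%) and none fell, against 4.08% and 8.25% of all genes, and 7 of the rises held. The median difference was 0.22, with 0.11 without day 14 mouse 2, 0.41 without day 14 mouse 3 and 0.35 without both arrays that stand apart. Beside Ccl24, Ccl22 and Ccl17, the ligands of the monocyte receptor Ccr2 rose: Ccl2 by 2.85 (SE 0.34, adjusted p = 0.00108), Ccl7 by 2.84 (SE 0.55, adjusted p = 0.00833) and Ccl12 by 3.07 (SE 0.56, adjusted p = 0.00621). Ccl2 read -2.64, -2.60 and -3.10 at day 7 and 0.08, -0.24 and 0.35 at day 14. Cxcl16, the ligand of Cxcr6, rose by 2.04. Cxcl9, a ligand of Cxcr3 induced by interferon gamma, read -1.34, -0.73 and -0.59 and then 1.03, 2.44 and 0.22, a rise of 2.12 (SE 0.52, adjusted p = 0.0251). That call ended without day 7 mouse 1 (adjusted p = 0.0917), day 7 mouse 2 (0.0561) or day 14 mouse 2 (0.07). Tested singly, the Cxcl9 probe sets differed by 2.725 and 1.505 (limma adjusted p = 0.0197 and 0.0672 over probe sets). Cxcl10, the other Cxcr3 ligand among the named genes, differed by -1.19 (SE 0.45, adjusted p = 0.11). An NF-kB motif occurred in the windows of 6 of the 18 chemokines with one, against 4.97% of all windows, and in none of the 5 of them that rose.

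Among 24 measured cytokines 4 rose (16.7%) and 1 fell (4.17%), against 4.08% and 8.25% of all genes. The cytokine median was 0.04, near that of all genes, and -0.03 without day 14 mouse 1. Csf1, the growth factor of macrophages, rose by 2.04 (SE 0.30, adjusted p = 0.00211) from -1.26, -1.30 and -1.41 to 0.67, 0.21 and 1.26. Ifng, the gene for interferon gamma, read -0.65, -0.88 and -0.27 at day 7 and 2.67, 2.28 and 0.95 at day 14, a rise of 2.57 (SE 0.53, adjusted p = 0.0115) that had adjusted p = 0.0606 without both arrays that stand apart. Il18, which induces interferon gamma in lymphocytes and which alveolar macrophages express, fell by 2.55 (SE 0.40, adjusted p = 0.00303) from 1.46, 1.54 and 1.74 to 0.14, -1.37 and -1.67. The arrays of the days did not overlap for any of these 3 genes. Il1b differed by 0.09 (SE 0.22, adjusted p = 0.804) and Tnf by -1.22 (SE 0.42, adjusted p = 0.0821).

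Of 11 measured chemokine receptors 6 rose (54.5%) and 1 fell (9.09%), against 4.08% and 8.25% of all genes. The list median was 0.76, and 4 rises held. Cxcr6 and Cxcr3, receptors of activated T and NK cells, rose by 2.93 (SE 0.38, adjusted p = 0.00137) and 1.12 (SE 0.19, adjusted p = 0.00427). Cx3cr1, found on monocytes, rose by 0.76 (SE 0.14) and Ccr1 by 0.82 (SE 0.17). Tested singly, the Ccr1 probe sets differed by 1.15 and 0.498 (limma adjusted p = 0.00111 and 0.258 over probe sets). Cxcr6 read -1.57, -1.31 and -0.80 at day 7 and 2.08, 2.11 and 0.92 at day 14, and Cx3cr1 read -0.06, -0.48 and -0.56 and then 0.30, 0.51 and 0.36. The day 14 arrays were above the day 7 arrays for both, and without both arrays that stand apart Cx3cr1 had adjusted p = 0.0555.

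Most genes of antigen presentation on MHC class II rose. Of 14 measured genes of this pathway 9 rose and none fell, against 4.08% and 8.25% of all genes. The median difference of the list was 0.67, and 8 of the 9 calls held. The exception was H2-Oa, a modulator of peptide loading, which rose by 1.55 and ended without day 7 mouse 1 (adjusted p = 0.0648), day 7 mouse 2 (0.0592) or day 14 mouse 2 (0.0685). Ciita, the factor that switches the class II genes on, read -0.59, -0.91 and -0.17 at day 7 and 1.08, 0.57 and 0.92 at day 14. It rose by 1.41 (SE 0.22, adjusted p = 0.00259). Tested singly, its probe sets differed by 2.30, 1.17 and 0.76 (limma adjusted p = 0.0018, 0.00524 and 0.0831 over probe sets). H2-Aa, a chain of the class II molecule, read -0.82, -0.85 and -0.90 and then 0.33, 0.40 and 0.24, a rise of 1.18 (SE 0.15, adjusted p = 0.00121). H2-Ab1, its partner chain, rose by 1.07 (SE 0.15), H2-DMa, which loads peptide, by 1.20 (SE 0.14), and the invariant chain Cd74 by 0.43 (SE 0.09). The replicates of a day lay close together and the days were separate for H2-Aa. In wildtype none of the 14 genes rose and 2 fell, with a median of -0.23, against 3.88% and 4.1% of all genes that rose and fell. By the interaction test the change was higher without the receptor for 8 of the 14, against 1.14% of all genes. For H2-Aa the interaction was 1.41 (SE 0.21, adjusted p = 0.00998).

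The class I pathway showed smaller changes. Of 16 genes 7 rose (43.8%) and 1 fell (6.25%), against 4.08% and 8.25% of all genes. The list median was 0.43. None of the 8 calls held, and none of the 16 genes passed without day 7 mouse 1. Psme1, an activator subunit of the proteasome, rose by 0.70 (SE 0.14, adjusted p = 0.011) and had adjusted p = 0.0516 without day 7 mouse 1. Psmb8, an immunoproteasome subunit, rose by 0.83 (SE 0.21, adjusted p = 0.0299), and H2-M3, which presents bacterial peptides, by 0.83 (SE 0.21, adjusted p = 0.0275). Leaving out day 7 mouse 1, day 7 mouse 3 or day 14 mouse 2 ended both of these calls, with adjusted p from 0.0637 to 0.0919, and so did leaving out day 7 mouse 2 for Psmb8 (0.0718) and day 14 mouse 1 for H2-M3 (0.0559). H2-D1 fell by 0.64 (SE 0.17, adjusted p = 0.0306) as a mean of 9 probe sets that disagree: 3 of them fell by 1.74 to 2.37 and the other 6 differed by -0.08 to 0.27. Its call ended without day 7 mouse 1 (0.114), day 7 mouse 2 (0.1), day 14 mouse 2 (0.0938) or day 14 mouse 3 (0.066). Tested singly, the Psmb8 probe sets differed by 0.938 and 0.716 (limma adjusted p = 0.0129 and 0.102 over probe sets).

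Markers of T cells and of cytotoxic cells were among those that rose in the sorted cells, and not every marker did. Of 18 measured T cell markers 11 rose and 1 fell, with a median difference of 0.86. Of 18 markers of cytotoxic and NK cells 9 rose and none fell, with a median of 1.27. Over all genes 4.08% rose and 8.25% fell. In sorted bulk cells fewer cells of a type and less RNA per cell cannot be told apart, so a rise can be more such cells or more RNA in each. Thy1, a surface protein of T cells, read -1.19, -1.53 and -1.11 at day 7 and 1.97, 2.64 and 0.75 at day 14, a rise of 3.07 (SE 0.46, adjusted p = 0.00234). Cd8b1, a chain of the CD8 coreceptor, rose by 2.89 (SE 0.44, adjusted p = 0.00242) and Cd3d, part of the CD3 complex, by 2.09 (SE 0.39, adjusted p = 0.00716). Cd4 differed by 0.33 (SE 0.18, adjusted p = 0.233) and Cd3e by 0.63 (SE 0.20, adjusted p = 0.0632). The adaptor Lat rose by 1.07 (SE 0.20), and Ms4a4b by 1.91 (SE 0.27) as a mean of 2 probe sets that disagree. Tested singly, the Ms4a4b probe sets differed by 3.70 and 0.12 (limma adjusted p = 0.0018 and 0.581 over probe sets). The 1 marker that fell, Cd2, fell by 1.59 (adjusted p = 0.0317) and passed in 1 of the 6 leave-one-out fits.

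Among cytotoxic genes, Nkg7, a granule protein, read -1.22, -1.46 and -1.02 at day 7 and 2.02, 2.87 and 0.95 at day 14, a rise of 3.18 (SE 0.53, adjusted p = 0.00395). Fasl, the ligand of the death receptor Fas, rose by 1.77 (SE 0.22, adjusted p = 0.00116), Klrg1, an inhibitory receptor, by 1.64 (SE 0.26) and Il2rb, a receptor chain for IL-2 and IL-15, by 1.01 (SE 0.17). Gzmb, a protease of cytotoxic granules, rose by 2.51 (SE 0.58, adjusted p = 0.0179), and the call ended without day 7 mouse 1 (0.0648), day 7 mouse 2 (0.0575) or day 14 mouse 2 (0.0622). Ncr1, a receptor that marks NK cells, differed by -0.01 (SE 0.17, adjusted p = 0.968). Day 14 mouse 3 was the lowest day 14 array for Thy1, Nkg7, Gzmb and Ifng, and its medians over the T cell list (0.16) and the cytotoxic list (0.04) were below those of day 14 mouse 1 (0.81 and 0.77) and mouse 2 (0.69 and 0.99). All 3 day 7 medians were lower, from -0.53 to -0.21 for the T cell list. The count of T cell markers that rose ranged from 7 without day 7 mouse 1 to 11 without day 14 mouse 3, and that of cytotoxic markers from 5 without day 7 mouse 1 to 10 without day 14 mouse 3. Without both arrays that stand apart the counts were 8 and 5.

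In wildtype mice 2 T cell markers and 3 cytotoxic markers fell and none rose, against 4.1% and 3.88% of all genes that fell and rose. The interaction was higher without the receptor for 8 of 18 T cell markers and 9 of 18 cytotoxic markers, against 1.14% of all genes. The lymphocyte markers moved in the same arrays as Ifng, Cxcr6, Cxcr3 and the class II genes, and their part in those results was not tested. Of 11 B cell markers 1 rose (9.09%) and 1 fell (9.09%), with a median of 0.12. Of 15 genes of helper and regulatory T cells 2 rose (13.3%). Over all genes 4.08% rose and 8.25% fell.

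More dendritic cell markers rose than fell, and more alveolar macrophage markers fell than rose. Of 18 dendritic cell markers 10 rose and none fell, against 4.08% and 8.25% of all genes. The list median was 0.76. The other 8, Il12b and Cd209a among them, did not pass. Of the 18 differences 13 were above 0. Day 14 arrays lay below all day 7 arrays for 1 marker, against 17.8% of all genes. The 3 day 7 arrays had list medians of -0.42, -0.50 and -0.37 and the 3 day 14 arrays 0.12, 0.03 and 0.17. Batf3, a factor needed for cross-presenting dendritic cells, read -1.64, -1.44 and -1.52 and then 0.08, 0.45 and 0.21, a rise of 1.79 (SE 0.21, adjusted p = 0.000978). Cd40 and Cd86, which give T cells a second signal, rose by 2.54 (SE 0.39) and 1.63 (SE 0.27), Irf4, a factor of CD11b+ dendritic cells, by 1.91 (SE 0.36) and Kmo, an enzyme of tryptophan breakdown, by 1.32 (SE 0.21). The count was 6 without day 7 mouse 1, day 7 mouse 2 or day 14 mouse 3, and the calls of these 5 genes and of Ccl22 held. In wildtype 2 of the 18 markers rose and 4 fell, against 3.88% and 4.1% of all genes that rose and fell. The wildtype median was -0.61. The 2 that rose were Batf3 (1.10) and Ccl22 (2.53), and neither had an interaction past the threshold. By the interaction test 5 of the 18 had a higher change without the receptor, against 1.14% of all genes. Ccr7, which guides dendritic cells to lymph nodes, rose by 0.79 (SE 0.20, adjusted p = 0.0255) in IFNAR-/- mice, passed in 2 of the 6 leave-one-out fits, and fell by 1.28 in wildtype (interaction 2.07, adjusted p = 0.00729).

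Of 22 alveolar macrophage markers 10 fell (45.5%) and 1 rose (4.55%), against 8.25% and 4.08% of all genes. The list median was -1.10. Krt19, a keratin, read 1.64, 1.59 and 2.27 at day 7 and 0.20, -1.97 and -1.99 at day 14, a fall of 3.09 (SE 0.55, adjusted p = 0.00541), and Perp fell by 3.18 (SE 0.52, adjusted p = 0.00381). Krt19 had adjusted p = 0.0533 without both arrays that stand apart. Pparg, on which these cells depend, fell by 1.56 (SE 0.33, adjusted p = 0.0129). Siglecf, their defining surface lectin, fell by 2.11 (SE 0.47, adjusted p = 0.0151), with adjusted p from 0.0504 to 0.0563 without day 7 mouse 1, day 14 mouse 2 or day 14 mouse 3. Day 14 mouse 1 stayed nearest to the day 7 arrays, with a list median of 0.02 against -0.58 and -0.52 in the other day 14 arrays and 0.61 to 0.83 at day 7. Slc7a2, an arginine transporter, was the marker that rose, by 0.99 (SE 0.18). Marco, a scavenger receptor, differed by -1.98 (SE 0.70, adjusted p = 0.0907), and Chil3 by -0.16 (SE 0.08, adjusted p = 0.232). In wildtype 9 of the 22 fell, with a median of -1.01, against 4.1% of all genes that fell. None had an interaction past the threshold. At the 2.48% of all genes that did, a list of 22 may well hold none. The count in IFNAR-/- mice was 7 without day 7 mouse 1 and 5 without both arrays that stand apart.

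**Figure D3:**
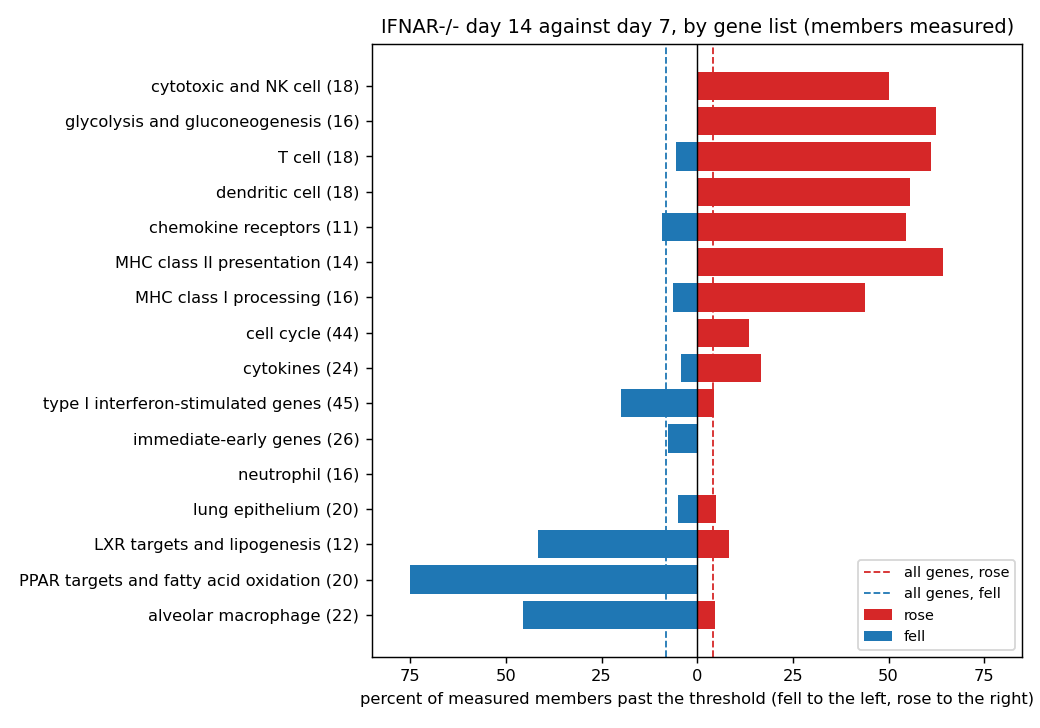
Share of the measured members of each described gene list that rose (bars to the right) or fell (bars to the left) between day 7 and day 14 in IFNAR-/- mice, with the number measured in brackets and dashed lines at the shares over all genes (4.08% rose, 8.25% fell). PPAR targets reach the farthest to the left, with 15 of 20 members, and MHC class II presentation the farthest to the right, with 9 of 14.

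Most genes of a list of fatty acid use fell, and most of a glycolysis list rose. Of 20 PPAR targets and genes of fatty acid oxidation 15 fell and none rose, against 8.25% and 4.08% of all genes. The median difference of the list was -1.02. All 20 differences were below 0. Day 14 arrays lay below all day 7 arrays for 18 of the 20, against 17.8% of all genes. Ech1, an enzyme of beta-oxidation, read 1.15, 1.18 and 1.17 at day 7 and -0.08, -0.45 and -0.30 at day 14, a fall of 1.44 (SE 0.16, adjusted p = 0.000654). Angptl4, a PPAR target that inhibits lipoprotein lipase, fell by 1.76 (SE 0.19, adjusted p = 0.000651), Plin2, which coats lipid droplets, by 1.29 (SE 0.19) and Cpt1a, which passes fatty acids to the mitochondrion, by 1.38 (SE 0.20). Hadha, a subunit of the trifunctional enzyme, fell by 1.02 (SE 0.19). The call held for 11 of the 15, and 9 genes of the list fell without both arrays that stand apart. Fabp4 fell by 2.73 (SE 0.58, adjusted p = 0.0121) and ended without day 7 mouse 1 (0.0535), and Acadm by 0.91 and ended without day 7 mouse 3 (0.0558). Acadvl and Cd36 passed in none of the leave-one-out fits.

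In wildtype 1 of these 20 genes fell and none rose, with a median of -0.08, against 4.1% and 3.88% of all genes that fell and rose. The interaction was lower without the receptor for 3 genes, against 1.34% of all genes. The interaction was -2.08 (SE 0.27, adjusted p = 0.00646) for Angptl4, -1.32 (SE 0.22, adjusted p = 0.0163) for Ech1 and -1.42 (adjusted p = 0.0235) for Plin2. The PPAR list shares 4 genes with the alveolar macrophage markers, of which Cidec, Fabp4 and Pparg fell. The alveolar macrophage markers had medians of -1.10 in IFNAR-/- mice and -1.01 in wildtype, and their part in the fall of the PPAR list was not tested. Of 12 LXR targets and lipogenic genes 5 fell (41.7%) and 1 rose (8.33%), against 8.25% and 4.08% of all genes. The list median was -0.76, or -0.49 and 3 falls without both arrays that stand apart. Lpl, the lipoprotein lipase, fell by 1.40 (SE 0.27, adjusted p = 0.0084), and that call held. The exporter Abcg1 fell by 1.73 (SE 0.44), the lipid transfer protein Pltp by 1.24 (SE 0.28) and the phospholipid enzyme Lpcat3 by 0.63 (SE 0.14). Tested singly, the Abcg1 probe sets differed by -2.24 and -1.22 (limma adjusted p = 0.00165 and 0.266 over probe sets). Those of Pltp differed by -1.59 and -0.895 (limma adjusted p = 0.0147 and 0.106). Abcg1 had adjusted p = 0.0855 without day 7 mouse 1, 0.0884 without day 7 mouse 2 and 0.084 without day 14 mouse 3, Pltp 0.0581 without day 7 mouse 3 and 0.0613 without day 14 mouse 2, and Lpcat3 0.0541 without day 14 mouse 3.

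Of 16 genes of glycolysis and gluconeogenesis 10 rose and none fell, against 4.08% and 8.25% of all genes. The list median was 1.12, and 7 of the calls held. Hk3, a hexokinase of myeloid cells, read -1.60, -1.51 and -1.99 at day 7 and 0.11, 0.42 and 0.12 at day 14, a rise of 1.92 (SE 0.23, adjusted p = 0.00111). Pgk1, which makes ATP in glycolysis, rose by 1.26 (SE 0.18), Ldha, which makes lactate, by 1.02 (SE 0.15), Hk2 by 1.5 (SE 0.26), the glucose transporter Slc2a1 by 1.77 (SE 0.37) and Pkm by 1.22 (SE 0.23). The 3 day 7 arrays had list medians of -0.76, -0.42 and -0.81 and the day 14 arrays 0.20, 0.41 and 0.19, so the days did not overlap. In wildtype none of the 16 passed, with a median of 0.27. At the 7.98% of all genes that did, a list of 16 may well hold none. Pgk1 (0.57), Ldha (0.44) and Hk2 (0.645) were higher at wildtype day 14 with arrays that did not overlap, whereas Hk3 differed by 0.05. The interactions of Pgk1, Ldha and Hk2 did not pass. By the interaction test 3 genes had a higher change without the receptor, against 1.14% of all genes. For Hk3 the interaction was 1.87 (SE 0.33, adjusted p = 0.0185). The count in IFNAR-/- mice was 6 without both arrays that stand apart.

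**Figure D4:**
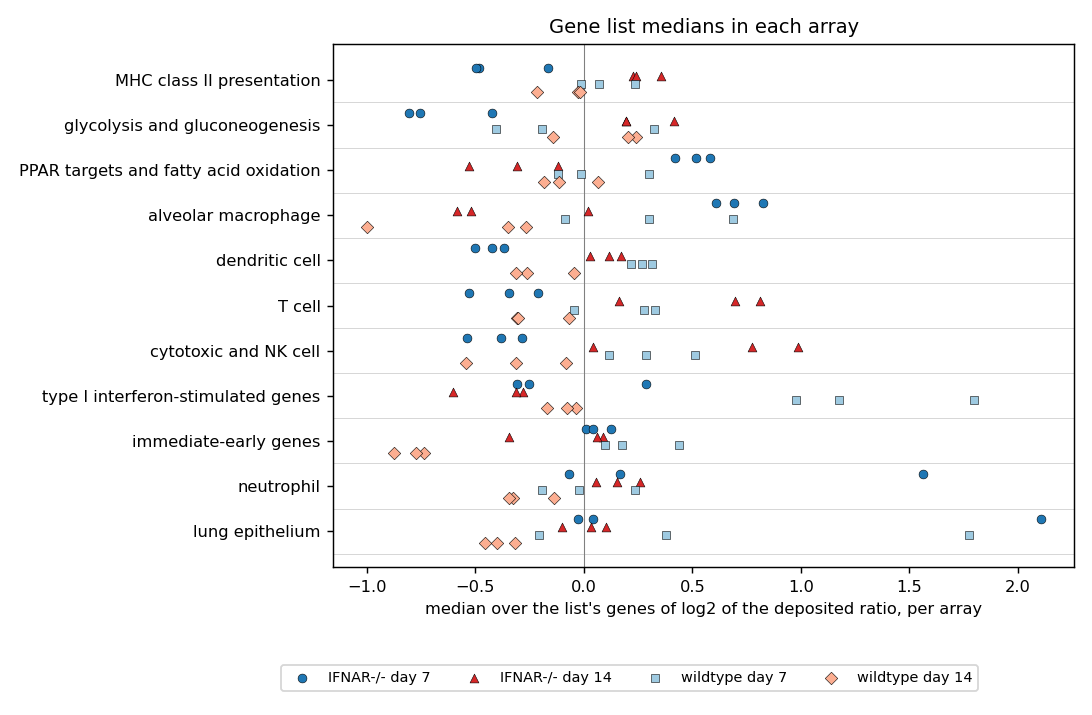
Median over each list's genes of log2 of the deposited ratio (x axis) in each of the 12 arrays, for 11 lists, with circles for IFNAR-/- day 7, triangles for IFNAR-/- day 14, squares for wildtype day 7 and diamonds for wildtype day 14. The IFNAR-/- days are apart for glycolysis (-0.81 to -0.42 against 0.19 to 0.41) and PPAR targets, and IFNAR-/- day 7 mouse 3 is the point at 2.11 for lung epithelium and 1.56 for neutrophils.

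Of 44 cell cycle genes 6 rose (13.6%) and none fell, against 4.08% and 8.25% of all genes. The median was 0.27, with 0.09 and 3 rises without day 14 mouse 1, 0.41 without day 14 mouse 2 and 0.47 without both arrays that stand apart. Cdc45 and Gins1, parts of the replication helicase, rose by 0.59 (SE 0.11, adjusted p = 0.00604) and 0.50 (SE 0.09, adjusted p = 0.00605), and Ccne1, cyclin E1, by 0.66 (SE 0.14, adjusted p = 0.0113), and these 3 calls held. Ccne1 had adjusted p = 0.0736 without both arrays that stand apart. Each of these genes also had a probe set that did not pass when tested singly. These differed by 0.41 for Cdc45, 0.27 for Gins1 and 0.47 for Ccne1 (limma adjusted p = 0.114, 0.307 and 0.0552 over probe sets). Cdk1 rose by 0.73 (SE 0.18, adjusted p = 0.0254) and passed in 1 of the 6 leave-one-out fits, whereas the proliferation marker Mki67 differed by 0.05 (SE 0.30, adjusted p = 0.922). Of 26 immediate-early genes, which respond to stimuli and to cell handling within minutes, 2 fell (7.69%) and none rose, a share of falls near the 8.25% of all genes. The median of -0.28 was -0.07 without day 14 mouse 2 and -0.02 without both arrays that stand apart, and 2 genes rose in each of these fits. Ier5 fell by 0.77 (SE 0.20, adjusted p = 0.0274) and Ier2 by 1.23 (SE 0.35, adjusted p = 0.0425). Neither call held: without day 7 mouse 1 their adjusted p was 0.0993 and 0.0766, without day 7 mouse 3 0.0774 and 0.136, and Ier2 had 0.0679 without day 7 mouse 2 and 0.117 without day 14 mouse 2. Without day 14 mouse 2 the differences were -0.51 for Ier5 and -0.81 for Ier2. Tested singly, the Ier5 probe sets differed by -1.23, -0.76 and -0.32 (limma adjusted p = 0.0018, 0.0845 and 0.579 over probe sets). Egr1 (difference -0.75, adjusted p = 0.0619) and Btg2 (-0.83, adjusted p = 0.0504) did not pass. In wildtype 19 of the 26 fell, with a median of -1.09, against 4.1% of all genes that fell. The interaction was higher without the receptor for 7, against 1.14% of all genes. The wildtype day 14 arrays, in which these genes were low, also had low signals of the poly-A spike controls. Their log2 ratios were -2.11, -1.94 and -3.48, against 0.835 to 2.15 at wildtype day 7. IFNAR-/- day 7 mouse 3 had the lowest spike signal of the series (-3.6) and an immediate-early list median of 0.04. The part of these signals in the wildtype fall was not tested.

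Markers of cells outside the gate were uneven between the day 7 arrays. Of 20 lung epithelium markers 1 rose (5.0%) and 1 fell (5.0%), against 4.08% and 8.25% of all genes. The median difference of the list was -0.74, and 0.04 without day 7 mouse 3. Scgb1a1, the secretoglobin of club cells, read 2.06, 1.10 and 3.53 at day 7 and -1.86, 0.47 and -1.60 at day 14, a fall of 3.23 (SE 0.88, adjusted p = 0.0371) that passed in 2 of the 6 leave-one-out fits, with adjusted p from 0.0855 to 0.118 in the others. Scgb3a1 and the club cell enzyme Cyp2f2 differed by -3.15 (SE 1.08, adjusted p = 0.0828) and -3.39 (SE 1.21, adjusted p = 0.0926). Cdh1, E-cadherin, rose by 1.57 (SE 0.34, adjusted p = 0.0142), and the call held. Its values did not follow the list median. In day 7 mouse 3, where the list median was 2.11, Cdh1 read -1.66, against -1.73 in both other day 7 arrays. In wildtype Cdh1 rose by 1.33 (SE 0.34, adjusted p = 0.0376), whereas the median difference of the list was -1.12. None of 16 neutrophil markers passed (12.3% of all genes did). Their median was -0.34, or 0.10 without day 7 mouse 3, and Ngp, a granule protein, read 0.44, 1.84 and 4.08 at day 7 and 0.26, 1.01 and 0.20 at day 14. Mmp8, Ltf and Prtn3, other granule proteins, differed by -1.19, -1.95 and -0.34 (adjusted p from 0.074 to 0.179). Ltf read 4.88 in wildtype day 7 mouse 1, where the list median was -0.19 for neutrophils and 1.775 for lung epithelium. It thus did not follow the neutrophil list there.

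The change over time differed between the genotypes for 451 genes, 208 with a higher and 243 with a lower change without the receptor. In wildtype 705 genes rose and 746 fell between the days. Of all genes 468 passed in both genotypes, 20.9% of the IFNAR-/- calls and 32.3% of the wildtype calls, and 433 of them moved in the same direction. Of the 743 genes that rose without the receptor 495 had a wildtype difference above 0 and 162 of these rose in wildtype, and of the 1501 that fell 1173 had one below 0 and 271 fell in wildtype.

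The 8 largest positive interactions were Ubd, Ptgs2, Cxcl9, Nkg7, Gzmb, Ifng, Cxcr6 and Thy1. Apart from Ptgs2 these rose in IFNAR-/- mice, as given above, and had wildtype differences below 0. Ptgs2, cyclooxygenase 2, read 0.20, -0.59 and -0.72 at day 7 and 1.28, -0.87 and 1.33 at day 14 in IFNAR-/- mice (difference 0.95, SE 0.65, adjusted p = 0.349). In wildtype it fell by 4.66 (SE 0.65, adjusted p = 0.00264), to -4.67, -2.86 and -3.88. Il1b followed the same course, with a wildtype fall of 2.57 (SE 0.22) and an interaction of 2.66 (SE 0.30, adjusted p = 0.00523). Cxcl9 fell in wildtype by 2.71 (SE 0.52, adjusted p = 0.0113), so its IFNAR-/- and wildtype arrays moved in opposite directions.

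The 8 largest negative interactions were Bex1, Cd163, Adamtsl4, Slc36a2, Ifnb1, Npl, C5ar1 and Dennd4c. Adamtsl4, a matrix-associated protein, had the smallest error of the 16 genes. It read 2.78, 3.02 and 2.54 in IFNAR-/- mice at day 7 and -0.05, -0.55 and -0.20 at day 14, a fall of 3.05 (SE 0.16, adjusted p = 1.23e-05), whereas its 6 wildtype arrays lay between -0.23 and 0.21. Its interaction was -3.22 (SE 0.23, adjusted p = 0.000281). C5ar1 read 0.05, 0.64 and 0.14 at wildtype day 7 and -0.54, -0.42 and -0.52 at wildtype day 14, which do not overlap (difference -0.77, SE 0.21, adjusted p = 0.0525). Its interaction was -2.54 (SE 0.30, adjusted p = 0.00542). Dennd4c, a regulator of Rab proteins, fell by 2.17 (SE 0.38, adjusted p = 0.0054), and in wildtype it differed by 0.37 (SE 0.38). Cd163, the scavenger receptor for haemoglobin, and Slc36a2, an amino acid transporter, rose only in wildtype, by 4.12 (SE 0.54) and 2.80 (SE 0.32). In IFNAR-/- mice they differed by -0.25 (SE 0.54, adjusted p = 0.777) and -0.31 (SE 0.32, adjusted p = 0.532), and the interaction tests are those just named. Npl, an enzyme of sialic acid breakdown, fell by 1.00 (SE 0.28, adjusted p = 0.0412) without the receptor, passing in 2 of 6 leave-one-out fits, and rose by 1.81 (SE 0.28) with it.

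The interaction calls for Adamtsl4, C5ar1, Ifnb1, Cd163, Slc36a2, Npl, Ptgs2, Cxcl9 and Cxcr6 passed whichever array of the series was left out. Those for Bex1, Dennd4c, Ubd, Gzmb, Ifng, Thy1 and Nkg7 each ended without at least 1 array. IFNAR-/- day 7 mouse 2 ended all 7 of them, with adjusted p from 0.0544 for Nkg7 to 0.0885 for Bex1. Of the 12 leave-one-out fits, 9 ended the interaction call for Bex1, 8 for Dennd4c, 7 for Gzmb, 5 for Ifng and for Ubd, 4 for Thy1 and 1 for Nkg7, with adjusted p of at most 0.0885. The wildtype day 14 arrays also differed in signs of RNA quality: their log2 ratio of 5′ to 3′ probes of actin and Gapdh was -0.239, -0.184 and -0.912, against 0.0781 to 0.178 at wildtype day 7 and -0.52 to 0.163 in the IFNAR-/- arrays. Their 18S rRNA signal was 2.5, 0.301 and 0.927, against -0.18 to 0.0684 at wildtype day 7. Among the IFNAR-/- arrays the poly-A spike signal was lowest in day 7 mouse 3 (-3.6) and day 14 mouse 2 (-1.75), and 18S rRNA was highest in day 14 mouse 2 (0.917). The part of these signals in the interaction was not tested.

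**Figure D5:**
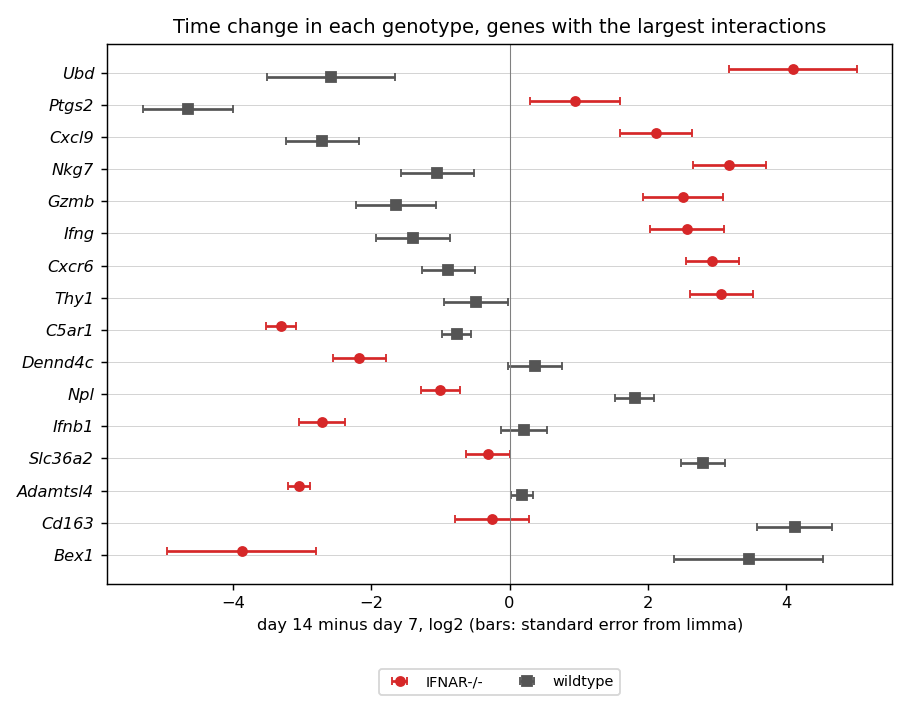
Day 14 minus day 7 on the log2 scale (x axis) in IFNAR-/- mice (circles) and in wildtype mice (squares), with bars of 1 standard error from limma, for the 8 genes with the largest positive and the 8 with the largest negative interaction. Adamtsl4 and C5ar1 fell by over 3 without the receptor, and Cd163 and Slc36a2 lie near 0 without it and at 4.12 and 2.80 in wildtype.

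Arg1, which breaks down arginine in macrophages activated by type 2 cytokines, rose by 3.12 (SE 0.34, adjusted p = 0.000654) in IFNAR-/- mice, from -2.0, -2.61 and -3.67 to 0.32, 0.11 and 0.63. Of 18 genes of this alternative activation 5 rose (27.8%, against 4.08% of all genes), Arg1, Ccl17, Ccl24, Pdcd1lg2 and Il4ra. The median was 0.34, with 0.20 without day 7 mouse 2, 0.21 without day 14 mouse 3, 0.58 without day 7 mouse 3, 0.66 without day 14 mouse 2 and 0.79 without both arrays that stand apart. In wildtype 8 of the 18 rose, against 3.88% of all genes, with a median of 1.34, and Arg1 itself differed by 1.11 (SE 0.34, adjusted p = 0.0699; interaction 2.00, adjusted p = 0.0528). Arg1 and Nos2, which compete for arginine, thus both rose without the receptor.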

How the data were processed

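RNA of CD11c+ cells was measured on 12 Affymetrix arrays, 1 per mouse, 3 per group. The submitters' processing notes name RMA, without a version. The authors deposited linear ratios. For 100% of 45101 probe sets the 12 values had a median less than 0.02 away from 1, so division by that median was read from the values; no source states it. Arrays have no read depth, and precision is limited by their number. No scan date, slide or other batch is given in the sources used here.

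Ratios were taken as log2 with no pseudocount (3 missing values). The 34945 probe sets with 1 gene symbol were averaged per symbol into 18193 genes, 9183 of them from 1 probe set. Symbols are from the platform table, updated by Entrez identifier to GRCm38.p6 RefSeq for 34741 probe sets. limma 3.58.1 in R 4.3.3 fitted 1 mean per group on all 12 arrays (8 residual and 3.21 prior degrees of freedom). Tests were two-sided, Benjamini-Hochberg adjusted, threshold 0.05. Mice are separate animals. Both time changes and their difference (interaction) were tested. Gene lists (46) are described by counts and medians and were not tested. Members and lists were chosen with earlier results of these data known.

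Genes were named by rule: the 12 largest rises and falls past the threshold with arrays that do not overlap, the 8 largest interactions in each direction, up to 4 members of lowest p of 16 described lists, and 12 fixed genes. Other genes named were chosen after their values were seen. The 16 are the 10 lists of at least 8 genes with the largest share past the threshold, and 10 fixed ones, some of them the same.

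On simulated data for this comparison (18193 genes) the fit called 26%, 68%, 92% and 98% of genes changed by 0.5, 1, 2 and 3 log2 units. It called 2 of 17993 unchanged genes. Far fewer genes were changed there than the 2244 called in the data, and the adjustment depends on that number. These shares therefore need not hold for the data. Alternatives were array weights, another normalization, centring, pseudocount, gene summary or variance prior, a block for mouse number, only the arrays compared, a filter, a 2-fold threshold, and each array left out.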

Additional observations from a re-analysis of the deposited data

Results flagged for a closer look

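The time change of 35 named genes differed between IFNAR-/- and wildtype mice in limma's interaction test with Benjamini-Hochberg adjusted p below 0.05, and each is given as the IFNAR-/- change minus the wildtype change on the log2 scale, with no explanation weighed. Genes with a higher change without the receptor included inflammatory mediators and chemokine receptors: Ubd (6.68), Ptgs2 (5.61), Cxcl9 (4.82), Ifng (3.96), Il1b (2.66), Cxcr6 (3.82), Cxcr3 (1.96) and Cx3cr1 (1.65). Lymphocyte and cytotoxic genes were Nkg7 (4.22), Gzmb (4.15), Thy1 (3.55), Cd8b1 (3.37), Ms4a4b (3.31), Fasl (2.58), Klrg1 (2.07) and Il2rb (1.76). The Ms4a4b value is a mean of probe sets that disagreed in the IFNAR-/- change. Genes of antigen presentation were Ciita (1.62), H2-Ab1 (1.46), H2-Aa (1.41), H2-DMa (1.19) and Psme1 (0.96). The others were Kmo (1.97), Hk3 (1.87), Btg2 (1.51) and Cdk1 (1.15).

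A lower change without the receptor was found for Bex1 (-7.33), Cd163 (-4.38), Adamtsl4 (-3.22), Slc36a2 (-3.11), Ifnb1 (-2.92), Npl (-2.82), C5ar1 (-2.54), Dennd4c (-2.54), Angptl4 (-2.08) and Ech1 (-1.32). Outside the 16 largest interactions, leaving out 1 array at a time ended the interaction call in 10 of 12 fits for Psme1 (adjusted p up to 0.0931) and Btg2 (up to 0.115), in 9 for Cdk1 (up to 0.105), in 6 for Ciita (up to 0.0609), in 4 for Cd8b1 (up to 0.0594) and in 2 for Klrg1 (up to 0.0517). Of the genes given here Ptgs2, Cd163, Slc36a2, Btg2 and Il1b did not pass in the IFNAR-/- time change itself. Groups of 3 arrays are too small for a test of single outlying arrays.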

How the results depend on the processing

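The count of 2244 genes in IFNAR-/- mice stayed within 1.5 times under quantile normalization, median subtraction, a pseudocount of 0.1, probe sets tested singly or chosen by spread, another variance prior, the filter and the block. Array weights gave 4576 (wildtype 2688, interaction 1765), only the 6 arrays compared 1155, and a 2-fold threshold 705 (wildtype 484, interaction 296). Probe sets tested singly gave 753 genes for the interaction. Left out in turn, single arrays gave 1094 to 2520 genes for IFNAR-/- mice, 716 to 1090 for wildtype and 138 to 485 for the interaction, and without both arrays that stand apart the IFNAR-/- count was 1136, of which 994 were called with all arrays. The causes were not tested, beyond fewer arrays in the last fits. The mouse numbers do not pair arrays: different mice were taken at each day, and the deviations of same-numbered IFNAR-/- arrays correlated at 0.09, 0.09 and -0.02 over genes. With the mouse number as a replicate block 1974 genes passed in IFNAR-/- mice, 1228 in wildtype and 325 in the interaction.

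Of the 98 named genes 82 passed, 63 of these in all 6 leave-one-out fits and 62 without both arrays. The sign turned only in genes that did not pass with all arrays: Cd163 was 0.172 with quantile normalization, 0.242 with array weights, 0.137 without both arrays and from -0.992 to 0.283 in the leave-one-out fits (positive without day 14 mouse 2), Itgax from -0.045 to 0.038 (positive without day 7 mouse 1 or day 14 mouse 2), Il1b from -0.094 to 0.398 (negative without day 14 mouse 1 or 3), and Slc36a2 0.09 without both arrays. Medians of the gene lists moved by more than the spread between arrays in 73 pairs of a list and a setting, and stayed within it in 433. With 3 arrays a group, changes under 1 log2 unit were often missed on simulated data, in which far fewer genes changed than were called here.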

Other observations

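The genes named here were chosen after their values were seen, and the counts stand against 4.08% of all genes that rose and 8.25% that fell. Among 14 matrix proteases and inhibitors 5 rose (35.7%) and 1 fell (7.14%). The collagenase gene Mmp13 rose by 3.04 (SE 0.80) and the macrophage elastase Mmp12 by 1.63 (SE 0.41), each passing in 2 of the 6 leave-one-out fits, and the sheddase Adam8 rose by 2.56 (SE 0.32) and passed in all of them. Among 15 eicosanoid genes 6 fell (40.0%) and 1 rose (6.67%), and 3 fell without both arrays that stand apart. Ltc4s, leukotriene C4 synthase, read 1.65, 1.83 and 2.05 at day 7 and 0.16, -1.36 and -1.74 at day 14 (a fall of 2.83, SE 0.51). Hbegf, a growth factor of the EGF family, rose by 2.82 (SE 0.51), and the inhibitory Fc receptor Fcgr2b by 1.64 (SE 0.10), whereas Fcgrt, which recycles antibody, fell by 1.81 (SE 0.35). Spic, a factor of macrophages that handle haem, fell by 2.10 (SE 0.17) in IFNAR-/- mice and differed by -0.31 in wildtype (interaction -1.80, adjusted p = 0.00698).

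Among 23 genes of interferon induction and signalling 3 rose and 5 fell (21.7%). Sting1, the adaptor of cytosolic DNA sensing, rose by 1.22 (SE 0.15) and differed by -0.41 in wildtype (interaction 1.63, adjusted p = 0.00679). Mavs, the adaptor of RNA sensing, fell by 1.83 (SE 0.30), and Jak2 rose by 1.60 (SE 0.21). Socs1, an inhibitor of cytokine receptors, rose by 2.74 (SE 0.28) from -2.53, -2.58 and -2.22 to 0.15, 0.61 and 0.13.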
